A study of Mus musculus with 6 samples.

Results

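The T-box transcription factor genes described here are Eomes, T, Tbx1, Tbx2, Tbx3, Tbx4, Tbx5, Tbx15, Tbx18 and Tbx20, in maps of the Polycomb protein Rybp in mouse embryonic stem (ES) cells. Members were found by gene symbol or accession in the probe annotation, which gave 376 probes for 9 of the 10 genes, among 16906 annotated genes and 474380 probes. No probe was matched to T, which was not analysed here. Chromatin fixed with formaldehyde was precipitated with an anti-Rybp antibody (Santa Cruz H-115), and the precipitate (IP, Cy5) was hybridised against input DNA (Cy3) on Agilent promoter arrays. The groups were ES cells with a constitutive Eed knockout (Eed-KO), ES cells with a constitutive Dnmt1 knockout (Dnmt1-KO) and wild-type ES cells (WT). The promoter set is split over a pair of array designs, hybridised once for every genotype (6 arrays), and each member was read on 1 array per genotype. With no replicate cultures there is no p-value, and 1 array per genotype and gene limits the precision. All 3 genotypes were grown with ESGRO on feeder fibroblasts or on gelatin, and the labels do not say which cultures had feeders.

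T-box factors share a DNA-binding domain, the T-box, and control how germ layers, heart and limbs form. In ES cells most of them are known Polycomb targets, held silent until differentiation, with Tbx3 an exception that ES cells express. Rybp is a subunit of variant forms of Polycomb repressive complex 1, which ubiquitylates histone H2A. Eed belongs to the core of Polycomb repressive complex 2, the enzyme for methylation of lysine 27 on histone H3, and Dnmt1 copies DNA methylation at CpG sites after replication. These arrays measure DNA only, so neither the cell type nor the loss of Eed or Dnmt1 could be checked by expression.

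The sequences below are shown because the WT maxima of 4 windows and the displaced Dnmt1-KO peak of Eomes lie on them. At Tbx1 the highest WT probe of the gene, 1.79, lies outside the window at 632 bp and is not printed. The printed Tbx1 probe had 1.49. The first 4 are the array probes with the highest WT level in the windows of the 4 members with the highest WT window level, and the fifth is the Eomes probe with the highest Dnmt1-KO level, chosen after its values were seen. The letters are in the order the files give, with CpG dinucleotides in capitals. Coordinates are those of the files, of a build not given in the sources used here, and no exon or intron is assigned.
Eomes, chr9:118326106-118326163, -907 bp from the annotated start: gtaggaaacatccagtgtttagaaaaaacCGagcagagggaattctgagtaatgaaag
Tbx15, chr3:99383260-99383308, 306 bp: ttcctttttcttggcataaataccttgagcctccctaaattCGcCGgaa
Tbx1, chr16:18500809-18500860, -302 bp: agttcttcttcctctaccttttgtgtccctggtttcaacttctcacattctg
Tbx20, chr9:24527968-24528020, -3285 bp: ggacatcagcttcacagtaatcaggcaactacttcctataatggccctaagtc
Eomes, chr9:118327889-118327933, 870 bp: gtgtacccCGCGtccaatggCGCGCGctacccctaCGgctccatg
The 4 probes that lead their windows in WT hold between 0 and 2 CpG, and the fifth holds 6 CpG in 45 bases. High Dnmt1-KO levels were not confined to CpG-rich probes. The Eomes probes at 1289 and 1425 bp hold 1 CpG each and had 3.01 and 3.64 in Dnmt1-KO. The Eomes probe at 1059 bp, with 5 CpG, had 3.81. The printed Tbx15 probe, with 2 CpG, was also the highest of its gene in Dnmt1-KO.

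The promoter of Eomes is shown because it lies at the edge of the strongest Rybp window among the members. It is the RefSeq entry for GRCm38.p6, chr9:118477939-118478238, plus strand, 5′ to 3′, with CpG in capitals.
Eomes promoter: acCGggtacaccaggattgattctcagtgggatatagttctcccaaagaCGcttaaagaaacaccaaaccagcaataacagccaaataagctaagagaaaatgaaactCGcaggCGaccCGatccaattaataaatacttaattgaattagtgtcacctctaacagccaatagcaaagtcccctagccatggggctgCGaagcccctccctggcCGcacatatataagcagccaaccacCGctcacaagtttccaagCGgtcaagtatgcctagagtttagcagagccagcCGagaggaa
It holds 10 CpG, against a median of 7 over 32851 promoter entries. A pair of array probes matched this entry, at -210 and -97 bp from the RefSeq start, which are -365 and -252 bp in the files, an offset of 155 bp. The first had levels of 1.89 in Eed-KO, 1.50 in Dnmt1-KO and 1.33 in WT, and the second 1.60 in Eed-KO, 0.81 in Dnmt1-KO and 1.25 in WT.

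The level of a probe is log2 of the IP over the input signal, centred on the median of its array, so 0 is the typical probe of the array and 1 is a 2-fold excess. Levels of a gene are means over its window, the 6 adjacent probes within 3000 bp that had the highest mean over all genotypes, and a gene with a level of 1 or more was called bound. Errors on levels are the standard deviation (SD) over the 6 probes and errors on differences are standard errors (SE) over the same probes. Neither holds any variation between cultures. The Dnmt1-KO arrays stood apart. Their SD of log2 ratios was 0.957 and 0.912, against 0.449 and 0.468 on the Eed-KO arrays and 0.413 and 0.417 on the WT arrays. They were read on another scanner model, so genotype and scan cannot be told apart for Dnmt1-KO. For that reason values are also given after setting the 3 arrays of a design to 1 spread, the median absolute deviation of its WT array. Over all probes, levels correlated with probe GC content at r of 0.446 and 0.442 on the Dnmt1-KO arrays, 0.256 and 0.239 on the Eed-KO arrays and 0.300 and 0.290 on the WT arrays.

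In the chosen windows, most of the 9 members were bound in Eed-KO cells as in WT cells. In Eed-KO cells 6 of the 9 genes were bound, against 5.76% of 16332 promoters. In Dnmt1-KO cells 9 of 9 were bound, where 46.1% of promoters were. In WT cells 5 of 9 were bound, against 5.15%. The genes bound in WT were Eomes, Tbx1, Tbx15, Tbx18 and Tbx20. In Eed-KO the list held Tbx2 and Tbx4 as well and lacked Tbx18, which had 0.98 there. With 1 spread the counts were 6 in Eed-KO (4.8% of promoters), 2 in Dnmt1-KO (5.02%) and 5 in WT (5.59%), so the Dnmt1-KO count changes with the spread of its arrays. At a bound level of 1.5-fold 9 of 9 were bound in Eed-KO (18.7% of promoters), 9 in Dnmt1-KO (65.5%) and 9 in WT (20.6%). With windows chosen on the WT arrays alone 5 were bound in Eed-KO (6.1%), 6 in Dnmt1-KO (36.1%) and 6 in WT (6.03%). As means of all probes within 1000 bp of the start, 2 were bound in Eed-KO (1.71%), 8 in Dnmt1-KO (29.2%) and 3 in WT (1.49%). The median level over the members was 1.21 in Eed-KO, 1.76 in Dnmt1-KO and 1.08 in WT, beside 0.21, 0.92 and 0.27 in the same order over all promoters.

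**Figure D1:**
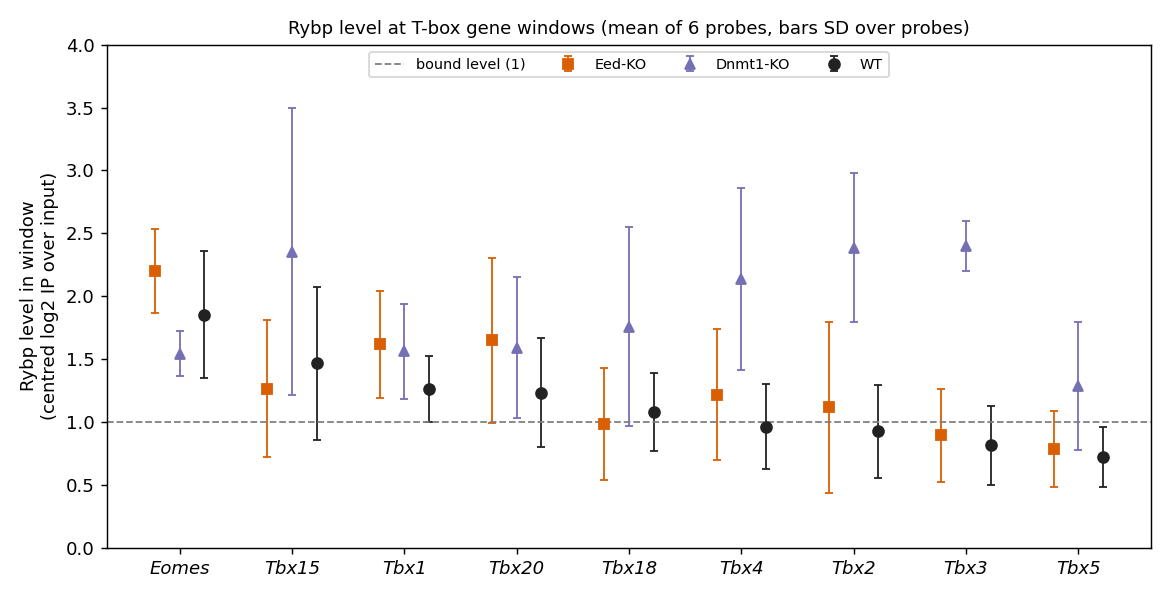
Rybp level (centred log2 IP over input) in the window of each of the 9 T-box genes, ordered by WT level. Points are means of 6 probes in Eed-KO, Dnmt1-KO and WT, bars are the SD over probes, and the dashed line is the bound level of 1. Eed-KO and WT points lie close together for every gene, and Dnmt1-KO points lie highest at Tbx2, Tbx3, Tbx4, Tbx5, Tbx15 and Tbx18.

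Eomes, which directs mesendoderm and trophoblast formation, had the highest window level of the members in Eed-KO and in WT. Its window, chr9:118325792-118326704 in the files' coordinates, runs from -1221 to -365 bp. The level was 2.20 ± 0.33 in Eed-KO, 1.54 ± 0.18 in Dnmt1-KO and 1.85 ± 0.50 in WT (SD, 6 probes). Of 16332 promoters it ranked 7 in Eed-KO, 3607 in Dnmt1-KO and 9 in WT. In these windows the order Eed-KO, WT, Dnmt1-KO was found at Eomes and at no other of the 9 genes. The difference from WT was 0.34 ± 0.15 for Eed-KO and -0.31 ± 0.22 for Dnmt1-KO (SE). The Dnmt1-KO difference turned upward in 3 of 14 alternatives, to 2.12 with normexp background correction, 0.49 within 1000 bp of the start and 0.41 over all probes of the gene. The last 2 of these read other sets of probes. The normexp levels, 1.16 in Eed-KO, 3.06 in Dnmt1-KO and 0.93 in WT, were near those of the best Dnmt1-KO run given below. The normexp window may therefore lie past the start, and a reversal at the same 6 probes is not shown.

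The probe printed first above had an IP signal of 2758 over an input of 493 in Eed-KO, 9770 over 3360 in Dnmt1-KO and 2389 over 372 in WT. As levels these are 2.49 in Eed-KO, 1.66 in Dnmt1-KO and 2.71 in WT. In Eed-KO and in WT the signal climbed to a peak inside the window, and the Dnmt1-KO signal there formed a lower crest. Past the start the profiles parted. The fifth printed probe, 870 bp past the start, had 0.41 in Eed-KO, 4.02 in Dnmt1-KO and 0.72 in WT. The next probe, at 1059 bp, had 0.83 in Eed-KO, 3.81 in Dnmt1-KO and 0.66 in WT. Eomes therefore carried its Dnmt1-KO maximum where the other genotypes had a trough. The best run of 6 probes in Dnmt1-KO was centred 1330 bp past the start, with 1.17 in Eed-KO, 3.19 in Dnmt1-KO and 1.01 in WT. In Eed-KO and in WT the best run was the window itself.

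**Figure D2:**
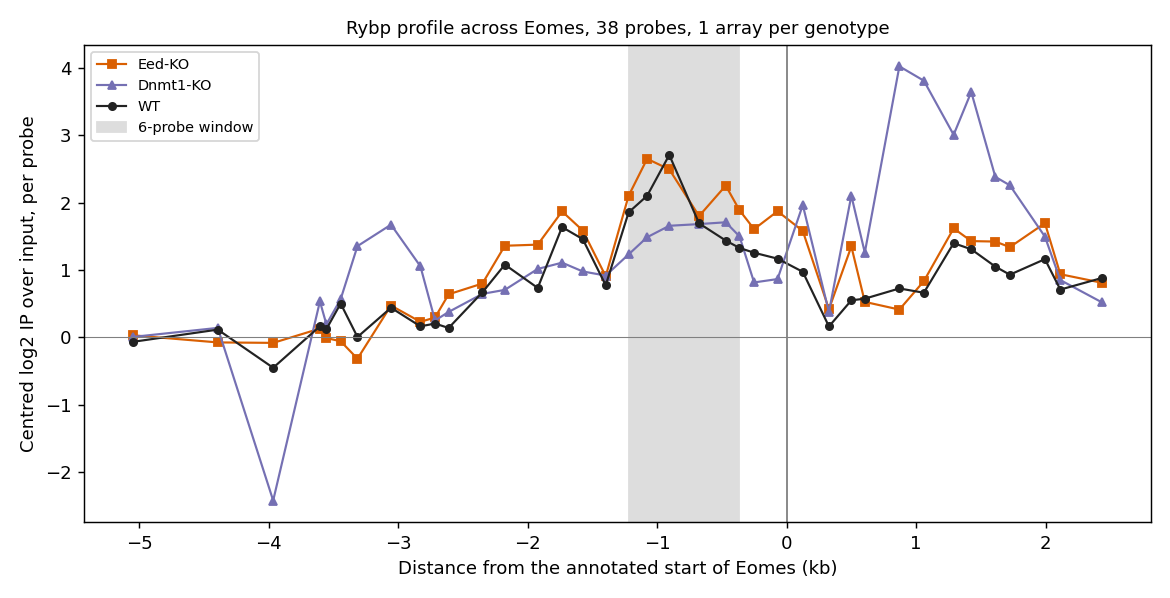
Centred log2 IP over input at each of the 38 Eomes probes against distance from the annotated start in kb, for Eed-KO, Dnmt1-KO and WT, with 1 array per genotype. The grey band is the 6-probe window. Eed-KO and WT peak inside it, and Dnmt1-KO peaks at 4.02, 870 bp past the start.

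The lead of Eomes over the other members depended on the genotype and on the processing. In Eed-KO the next levels were 1.65 ± 0.66 at Tbx20 and 1.62 ± 0.42 at Tbx1, in WT 1.47 ± 0.61 at Tbx15 and 1.26 ± 0.26 at Tbx1 (SD over probes). These SDs overlap that of Eomes in both genotypes. With normexp Tbx1 led, with 1.69 in Eed-KO and 1.44 in WT, where Eomes had 1.16 in Eed-KO and 0.93 in WT. Those normexp values of Eomes may belong to another run of probes than its window above. Tbx1 also led over all probes of the gene in both genotypes, and in WT within 1000 bp of the start, by 1.15 to 1.14. In Dnmt1-KO 7 members had a higher level than Eomes, and Tbx5 a lower one.

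Tbx1, a regulator of pharyngeal arch and outflow tract development, had, counting probes at 1 or more, the broadest signal of the members in Eed-KO and in WT. Its window (chr16:18500335-18501374, -818 to 175 bp) had 1.62 ± 0.42 in Eed-KO, 1.56 ± 0.38 in Dnmt1-KO and 1.26 ± 0.26 in WT. In Eed-KO all 6 window probes were above WT, by 0.35 ± 0.07 (SE). Dnmt1-KO minus WT was 0.30 ± 0.20. Along the gene, 40 of 41 probes were above 0 in Eed-KO, 41 in Dnmt1-KO and 41 in WT, and 22, 30 and 20 of them in the same order were at 1 or more. The mean over all its probes was 1.11 in Eed-KO, 1.48 in Dnmt1-KO and 1.00 in WT, which ranked 13, 59 and 10 among 13554 genes with at least 20 probes. The start used in the files is one of several for Tbx1: the RefSeq promoter entries that matched probes lie 1930 and 3702 bp upstream of it. Of the Tbx1 probes, 26, from -5003 to -302 bp, are also annotated to 4930588K23Rik, so part of this signal cannot be assigned to 1 gene.

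Tbx20, a cardiac factor, had its window far upstream (chr9:24527593-24528682, -3951 to -2913 bp). The level there was 1.65 ± 0.66 in Eed-KO, 1.59 ± 0.56 in Dnmt1-KO and 1.23 ± 0.43 in WT. Eed-KO exceeded WT at 6 of 6 probes, by 0.42 ± 0.09 (SE), the largest Eed-KO difference among the members. Dnmt1-KO minus WT was 0.36 ± 0.21. At the printed probe, -3285 bp, levels were 2.27 in Eed-KO, 2.04 in Dnmt1-KO and 1.65 in WT. At the start itself only Dnmt1-KO had a peak: 69 bp past it the levels were 1.26 in Eed-KO, 3.24 in Dnmt1-KO and 1.00 in WT. The best Dnmt1-KO run lay 3422 bp from the best WT run. The RefSeq promoter of Tbx20 holds 26 CpG, more than 83.1% of promoter entries.

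Tbx18, which acts in the sinus node, epicardium and somites, had its window past the start (chr9:87526897-87527766, 1462 to 2280 bp). It had 0.98 ± 0.45 in Eed-KO, 1.76 ± 0.79 in Dnmt1-KO and 1.08 ± 0.31 in WT. Eed-KO minus WT was -0.10 ± 0.20 and Dnmt1-KO minus WT 0.68 ± 0.28 (SE). The Eed-KO difference was smaller than its error, so its place just under the bound level is not separated from that of WT.

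Tbx2 and Tbx3, close relatives that act as repressors, had, with Tbx15, the highest Dnmt1-KO levels of the members. Tbx2 (chr11:85647954-85649043, -828 to 208 bp) had 1.11 ± 0.68 in Eed-KO, 2.39 ± 0.60 in Dnmt1-KO and 0.93 ± 0.37 in WT. Tbx3 (chr5:119928615-119929458, -2644 to -1849 bp) had 0.89 ± 0.37 in Eed-KO, 2.40 ± 0.20 in Dnmt1-KO and 0.81 ± 0.31 in WT. For Eed-KO minus WT, Tbx2 had 0.19 ± 0.13 and Tbx3 0.08 ± 0.10 (SE), with 4 of 6 probes above WT at each. In Dnmt1-KO all 6 probes were above WT at both genes, by 1.46 ± 0.21 at Tbx2 and 1.58 ± 0.10 at Tbx3. The Dnmt1-KO arrays took part in choosing these windows, and the Tbx2 window was the best Dnmt1-KO run. With windows chosen on the WT arrays alone the differences were -0.28 at Tbx2 and -0.03 at Tbx3. The probe counts and errors above therefore hold for the chosen windows only.

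The Tbx3 signal in Dnmt1-KO was broad, as it was at Tbx1, where 30 of 41 probes were at 1 or more. It was not flat: its probes ranged from -0.29 to 3.23. Of its 45 probes, 6 were at 1 or more in Eed-KO, 30 in Dnmt1-KO and 5 in WT. Its mean over all probes was 0.45 in Eed-KO, 1.49 in Dnmt1-KO and 0.55 in WT, ranks 707, 52 and 331 of 13554. The probes within 1 Mb around Tbx3, its own left out, also shifted: the median Dnmt1-KO minus WT was 1.37 for log2 input signal, 1.43 for log2 IP signal and 0.21 for the centred ratio. In Eed-KO minus WT the same shifts were 0.02, 0.09 and 0.06. Around the 9 members the input shift lay between -0.08 and 0.06 in Eed-KO minus WT, and between -1.02 (Tbx20) and 1.37 in Dnmt1-KO minus WT. The part of this regional shift in the Tbx3 difference was not tested.

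Tbx4, needed for hindlimb growth, lies near Tbx2 on chromosome 11, and Tbx5, needed for the forelimb and heart, near Tbx3 on chromosome 5. Tbx4 (chr11:85704598-85705424, -1635 to -858 bp) had 1.21 ± 0.52 in Eed-KO, 2.14 ± 0.72 in Dnmt1-KO and 0.96 ± 0.34 in WT. Tbx5 (chr5:120095579-120096538, 326 to 1232 bp) had 0.79 ± 0.30 in Eed-KO, 1.29 ± 0.51 in Dnmt1-KO and 0.72 ± 0.24 in WT, the lowest of the members in each genotype. For Tbx4, Eed-KO minus WT was 0.25 ± 0.13 and Dnmt1-KO minus WT 1.17 ± 0.23 (SE). For Tbx5, Eed-KO minus WT was 0.07 ± 0.11 and Dnmt1-KO minus WT 0.57 ± 0.22. With windows chosen on the WT arrays alone, Dnmt1-KO minus WT was -0.07 at Tbx4 and -1.25 at Tbx5.

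Tbx5 had its strongest WT signal where the Dnmt1-KO signal was below the array median. In the best WT run, centred at -2042 bp, the level was 0.79 in Eed-KO, -0.40 in Dnmt1-KO and 0.85 in WT. The probe at -2144 bp had 1.00 in Eed-KO, -1.02 in Dnmt1-KO and 1.24 in WT, from IP signals of 859, 3259 and 999 over inputs of 434, 7186 and 431 in that order. The Dnmt1-KO maximum of Tbx5, 2.58, lay at -2894 bp, where Eed-KO had 0.79 and WT 0.23. The neighbourhood of Tbx5 shifted in Dnmt1-KO as that of Tbx3 did, by 1.28 in log2 input and 1.33 in log2 IP signal. The 1 Mb neighbourhoods of Tbx3 and Tbx5 overlap and share probes, so this is not a separate region.

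Tbx15, a factor of limb skeleton and muscle, kept its peak in place in all genotypes. Its window, chr3:99382873-99383743, begins at -83 bp and ends at 735 bp. The level was 1.26 ± 0.54 in Eed-KO, 2.35 ± 1.14 in Dnmt1-KO and 1.47 ± 0.61 in WT. Eed-KO minus WT was -0.20 ± 0.16 and Dnmt1-KO minus WT 0.89 ± 0.44 (SE). With windows chosen on the WT arrays alone, Dnmt1-KO minus WT was -0.05. The printed probe at 306 bp had 1.73 in Eed-KO, 3.69 in Dnmt1-KO and 2.33 in WT. It was the highest probe of the gene in Dnmt1-KO and in WT, whereas the Eed-KO maximum, 1.80, lay at 44 bp. At -342 bp the signal dropped in all of them, to -0.77 in Eed-KO, -0.01 in Dnmt1-KO and -0.55 in WT.

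**Figure D3:**
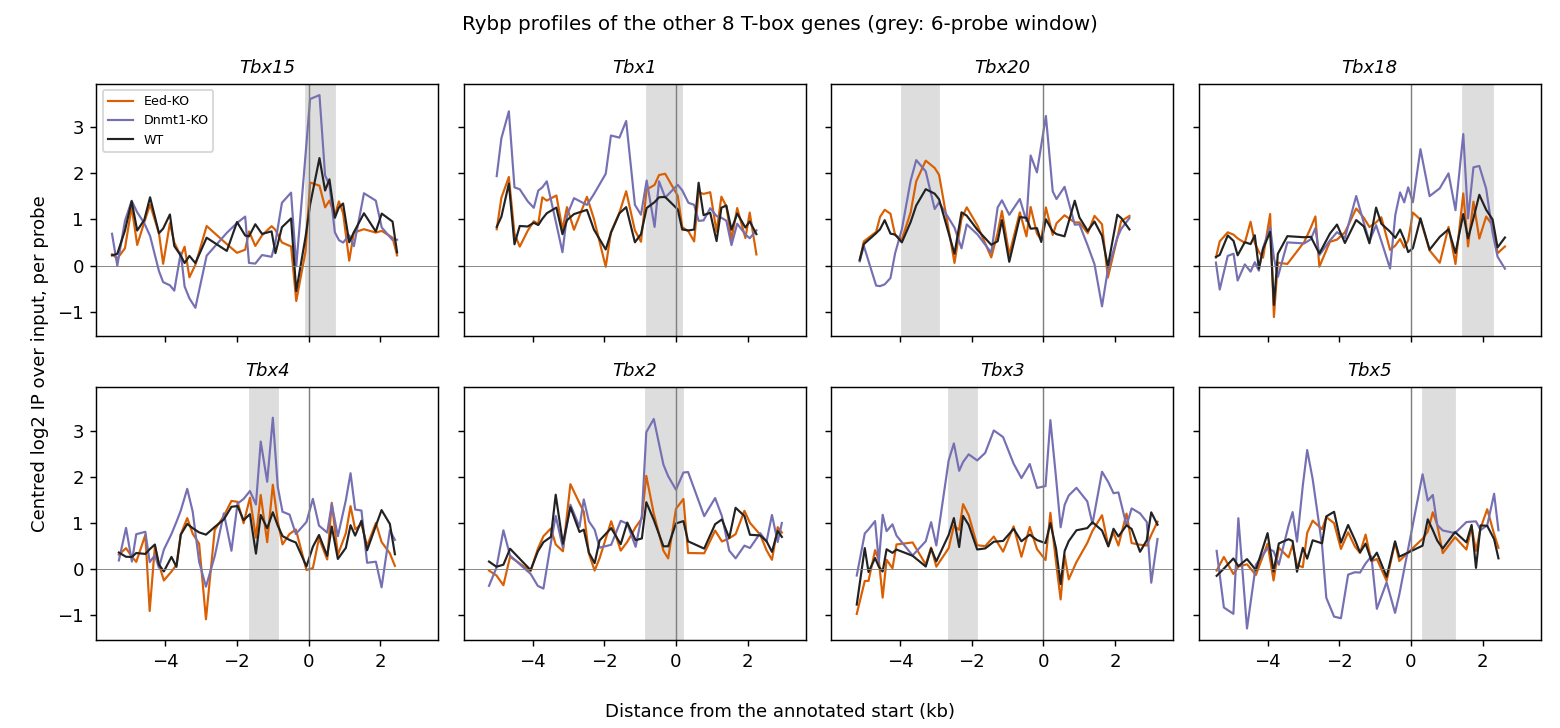
Centred log2 IP over input per probe against distance from the annotated start in kb for the other 8 T-box genes, with Eed-KO, Dnmt1-KO and WT as lines and the 6-probe window in grey. Eed-KO and WT lines run together, while Dnmt1-KO shows a broad signal at Tbx3, a peak at the Tbx20 start and a dip at Tbx5 upstream of the start.

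In the comparison of Eed-KO with WT no T-box gene gained or lost a 2-fold amount of Rybp signal. Among the 7 members bound in either genotype 0 were higher by at least 1 (0.088% of 1136 such promoters) and 0 lower (0%). The median difference over the 9 members was 0.19, beside -0.04 over all promoters, and 7 of 9 were above 0. Only at Tbx1 and Tbx20 were all 6 probes above WT. With 1 spread 0 were higher (0.093%), and the difference was 0.13 ± 0.15 at Eomes, 0.19 ± 0.05 at Tbx1 and 0.32 ± 0.08 at Tbx20 (SE). The median of the members moved to -0.07 with windows chosen on the WT arrays alone, where all promoters had -0.08, so the small excess depends on how the windows are chosen.

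Along the genes the Eed-KO profile followed that of WT. Pearson's r across the 38 to 45 probes of a gene ranged between 0.70 at Tbx18 and 0.92 at Eomes, with a median of 0.83. Promoters bound in WT had a median r of 0.87 and all promoters 0.65. Probes of a gene share their arrays, their base composition and overlapping chromatin fragments, so r is a description. The best Eed-KO run lay within 500 bp of the best WT run at 7 of the 9 genes (77.8%), as at 88.8% of the promoters bound in WT. The exceptions were Tbx2 (1885 bp) and Tbx3 (4868 bp), whose best WT runs had levels of 0.99 and 0.84.

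In the comparison of Dnmt1-KO with WT, 3 of 9 members were higher by at least 1 (Tbx2, Tbx3 and Tbx4), a smaller share than the 53.9% of 7546 promoters bound in either genotype. None of the 9 was lower by that size in these windows, 0 against 0.0398%. With windows chosen on the WT arrays alone Tbx5 had -1.25, from -0.40 in Dnmt1-KO and 0.85 in WT, so bound in neither. The median difference was 0.68 over members and 0.61 over all promoters, with 8 of 9 members above 0 and Eomes below. With 1 spread 0 of the 7 members bound in either genotype were higher (0.221% of 1359 promoters) and 1 was lower (1.03%). That gene was Eomes, with 0.71 in Dnmt1-KO and 1.85 in WT, a difference of -1.15 ± 0.21 (SE), 0 of 6 probes being above WT. This call is for the window where WT peaked and not for the whole gene. Without scaling, the best Dnmt1-KO run of Eomes had 3.19 in Dnmt1-KO and 1.01 in WT. With 1 spread the 3 higher genes differed by 0.17 ± 0.13 (Tbx2), 0.22 ± 0.11 (Tbx3) and 0.02 ± 0.11 (Tbx4). With windows chosen on the WT arrays alone they had -0.28, -0.03 and -0.07 in the same order without scaling. Over 14 alternatives the difference was at least 1 in 10 at Tbx2, 10 at Tbx3 and 7 at Tbx4. Some of these alternatives left the member values unchanged, so the counts are no measure of robustness.

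**Figure D4:**
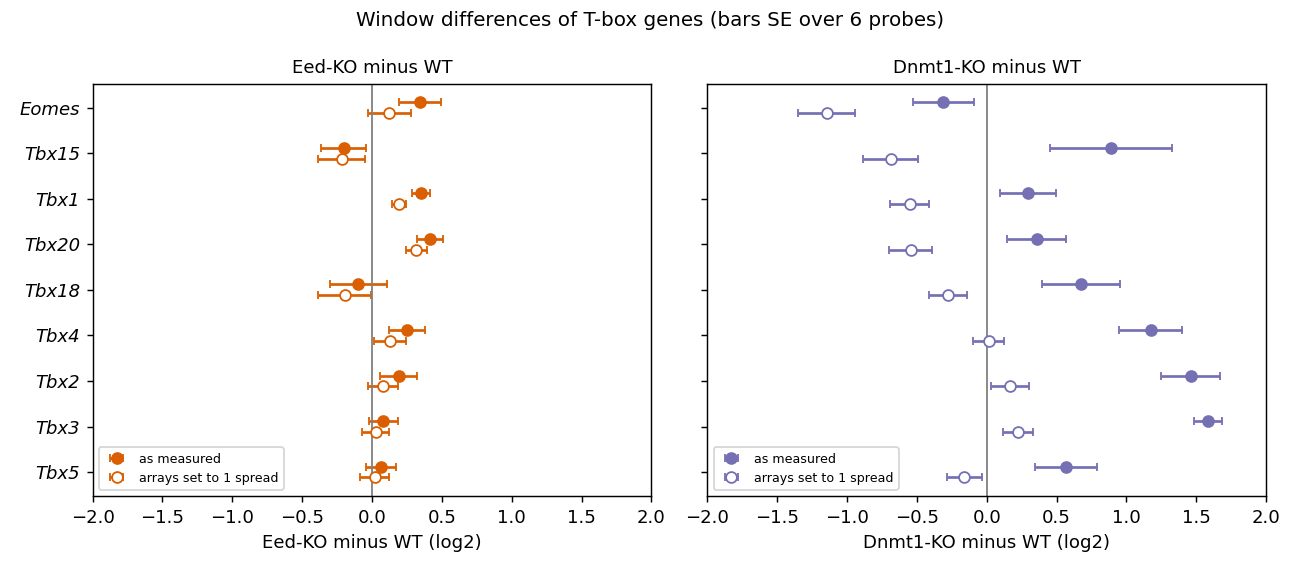
Difference in window level from WT (log2) for each T-box gene, Eed-KO in the left panel and Dnmt1-KO in the right, with bars for the SE over 6 probes. Filled points are levels as measured and open points follow setting arrays to 1 spread. Eed-KO differences lie between -0.22 and 0.42 on both scales, while Dnmt1-KO differences move down with scaling, to -1.15 at Eomes.

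The position of the Dnmt1-KO signal within the genes also differed from WT. Across probes the Dnmt1-KO profile had r with WT of 0.10 at Tbx5, 0.19 at Tbx1, 0.29 at Tbx20, 0.44 at Eomes and 0.64 at Tbx15, with a median of 0.43 over the 9 genes. Over all promoters the median was 0.42, and over promoters bound in WT 0.71. The members thus lay at the level of all promoters and below the promoters bound in WT, although 5 of them were bound. A linear scaling of an array cannot change r, so setting arrays to 1 spread gives no further check here. The part of the scan and of probe GC content in these r values was not tested. The best Dnmt1-KO run was within 500 bp of the best WT run at 1 of 9 genes (11.1%), Tbx15, against 66.1% of promoters bound in WT and 56.2% of all. The median shift was 1369 bp, against 302 bp at promoters bound in WT.

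**Figure D5:**
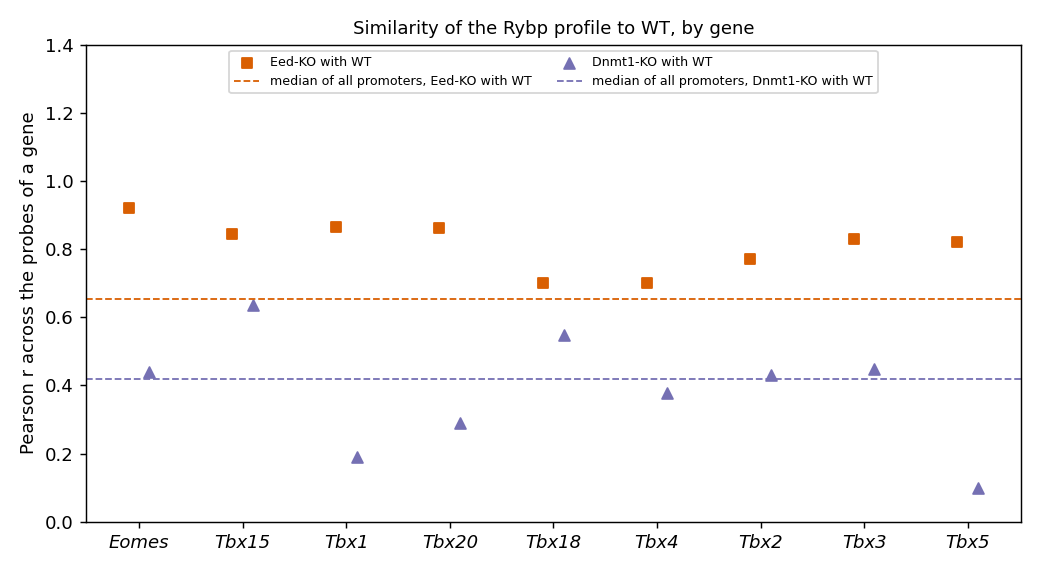
Pearson's r across the probes of each T-box gene between Eed-KO and WT and between Dnmt1-KO and WT, with dashed lines at the medians of all promoters (0.65 and 0.42). Eed-KO values lie between 0.70 and 0.92, above their line, and Dnmt1-KO values between 0.10 and 0.64, on both sides of theirs.

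Averaged over the 9 genes, the signal in Eed-KO and in WT was flat around the start and declined upstream. From 0 to 1000 bp the mean level was 0.83 in Eed-KO, 1.63 in Dnmt1-KO and 0.80 in WT. From -3000 to -2000 bp it was 0.81 in Eed-KO, 0.90 in Dnmt1-KO and 0.75 in WT. The first kilobase, where Dnmt1-KO was highest, was also the richest in CpG, with 4.86 per 100 bases against 2.11 in the upstream interval. Across the probes of a gene, r between level and probe GC content was between 0.09 and 0.49 in Dnmt1-KO and between -0.60 and 0.04 in WT. The part of probe base composition in the shift of position was not tested. Of the 376 member probes, 28.7% were at 1 or more in Eed-KO, 47.3% in Dnmt1-KO and 24.7% in WT. Over all probes the shares were 3.13%, 15.2% and 2.59% in the same order.

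Other T-box genes divided into bound and unbound. In Eed-KO 2 of 7 were bound (5.76% of all promoters), in Dnmt1-KO 4 (46.1%) and in WT 2 (5.15%). With 1 spread the Dnmt1-KO count was 0 (5.02%). Among those bound in the knockout or in WT, a difference of at least 1 was found at 0 of 2 in Eed-KO and 0 of 4 in Dnmt1-KO. Of all promoters bound in either genotype, 0.088% were higher in Eed-KO and 53.9% in Dnmt1-KO. Mga, whose protein pairs with Max and belongs to a variant Polycomb complex with Rybp, had 1.56 in Eed-KO, 2.17 in Dnmt1-KO and 1.71 in WT. Its r between Dnmt1-KO and WT was 0.87, over 39 probes that reach 71953 bp past the start, against at most 0.64 among the members. Tbr1, a cortical neuron factor, had 1.14 in Eed-KO, 1.86 in Dnmt1-KO and 1.12 in WT. Tbx21, the master factor of Th1 cells, had 0.58 in Eed-KO, 1.30 in Dnmt1-KO and 0.62 in WT. Tbx22, a palate factor on the X chromosome, had 0.78 in Eed-KO, 1.26 in Dnmt1-KO and 0.26 in WT.

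The remaining ones were near the array median in WT. Tbx6, of the presomitic mesoderm, had 0.10 in Eed-KO, -0.15 in Dnmt1-KO and -0.08 in WT. Tbx19, of pituitary corticotrophs, had 0.06 in Eed-KO, -0.39 in Dnmt1-KO and 0.09 in WT. Tbx10 had -0.05 in Eed-KO, 0.90 in Dnmt1-KO and -0.00 in WT. None of these 3 was near the bound level in WT or in Eed-KO.

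Among 30 mesendoderm, cardiac and limb genes that are partners or targets of T-box factors, 16 were bound in Eed-KO (5.76% of all promoters), 23 in Dnmt1-KO (46.1%) and 13 in WT (5.15%). With 1 spread 5 were bound in Dnmt1-KO (5.02%). The median level was 1.18 in Eed-KO, 1.72 in Dnmt1-KO and 0.97 in WT. The highest WT levels were at Mesp2, a segmentation factor, with 1.28 in Eed-KO, 3.60 in Dnmt1-KO and 1.49 in WT, and at Sox17, an endoderm factor, with 1.41 in Eed-KO, 2.40 in Dnmt1-KO and 1.35 in WT. The lowest WT levels were at Nppa, a cardiac hormone gene, with 0.22 in Eed-KO, 0.26 in Dnmt1-KO and -0.14 in WT, and at Cer1, a Nodal and BMP antagonist, with 0.00 in Eed-KO, 0.63 in Dnmt1-KO and -0.03 in WT. A difference of at least 1 was found at 0 of the 17 genes bound in Eed-KO or WT (0.088% of promoters bound in either genotype were higher in Eed-KO). In Dnmt1-KO 11 of the 23 genes bound in either genotype were higher, no larger a share than the 53.9% of such promoters, and with 1 spread 0 of 13 were (0.221%).

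The promoters most like Eomes in their 3 levels, by Euclidean distance with 1 spread, were Nkx2-3, Osr2, Pcdhga10, Dbx1 and Clstn1, at distances of 0.265 to 0.373. Eomes had 1.98 in Eed-KO, 0.71 in Dnmt1-KO and 1.85 in WT on this scale, and Nkx2-3 had 1.84 in Eed-KO, 0.72 in Dnmt1-KO and 1.62 in WT. The median member was 1.09 in Eed-KO, 0.80 in Dnmt1-KO and 1.08 in WT, and the promoters nearest to it were Sema3d, Hoxd12, C1ql3, Ppp1r27 and Acat1. Likeness here rests on 1 value for each of 3 genotypes.

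Motifs were searched on both strands. The T-box site GGTGTGA, the E-box CACGTG and the E2F sites GGCGGGAA and GCGCGAAA were found in 0 of the 54 probes of the members' windows. The T-box site was in 3 of the 376 member probes, at Eomes, Tbx4 and Tbx5, and the E-box in 2, at Eomes and Tbx2. Of all probes, 0.559% held GGTGTGA, 0.499% CACGTG, 0.0563% GGCGGGAA and 0.0103% GCGCGAAA. At such shares few or no matches are to be awaited in so few probes, and the counts set the members apart in no way. The RefSeq table held promoter entries for Eomes, Tbx1, Tbx4, Tbx18, Tbx20 and T, and 0 of these 7 entries had any of the 4 motifs. Of all promoter entries, 3.98% held GGTGTGA, 7.15% CACGTG, 2.19% GGCGGGAA and 0.323% GCGCGAAA. A missing match says only that these letters are not in the probes and promoter entries searched. The bases between the probes of a window were not searched.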

How the data were processed

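Rybp ChIP-chip of 6 arrays (3 genotypes, 2 designs) was analysed. Per the file headers, the deposited red and green processed signals are background-subtracted, dye-normalised intensities from Agilent Feature Extraction, version 9.5.3.1 on scanner G2505B for WT and Eed-KO and 10.1.1.1 on G2505C for Dnmt1-KO. The submitters' processing notes list 9.5.3.1. The authors' deposited value table holds log10 ratios, with column medians of -0.0317 and -0.0316 (Eed-KO), -0.121 and -0.114 (Dnmt1-KO) and -0.025 and -0.027 (WT). Each column matched the scanner log10 ratio of its array up to a constant, to a tolerance of 0.001 for 99.0% of probes or more, which settles scale and direction. How its centring was done is not stated. Depth is not defined for arrays.

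Non-control probes were kept unless flagged as outliers (333 left out, 0 of them in members), and each array was centred on its median log2 ratio of Cy5 over Cy3. Gene names were updated through accessions (16944 of 17601 matched a GRCm38.p6 table used for names). Levels are means over the chosen window, and no test across samples was possible with 1 array per group. Members, gene lists and rules were chosen with earlier results of these data known. The text names all members, 7 other T-box genes, the 2 highest and 2 lowest WT levels of a 30-gene list, and the 5 promoters nearest in level. 16 alternatives were run, and r across probes was added after seeing the data. The window step was tested on simulated data. Tools were Python 3.11.15, pandas 2.3.3, numpy 2.4.6, statsmodels 0.14.6 and, for normexp, limma 3.58.1 in R 4.3.3.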

Additional observations from a re-analysis of the deposited data

How the results depend on the processing

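Counts of bound members and median differences depended on spread, window and bound level. Bound in Eed-KO, against 6, were 3 at 3-fold (0.704% of all promoters, as for the shares after it), 2 within 1000 bp of the start (1.71%) and 2 over all probes of a gene (0.263%). Bound in Dnmt1-KO, against 9, were 2 with 1 spread (5.02%), 1 with the GC trend also removed (2.51%) and 3 over all probes (3.06%). Bound in WT, against 5, were 2 with normexp (2.5%), 9 at 1.5-fold (20.6%), 1 at 3-fold (0.276%), 3 within 1000 bp (1.49%) and 1 over all probes (0.102%). The median Eed-KO minus WT turned to -0.0023 with the GC trend removed and 1 spread, -0.066 with windows chosen on WT and -0.0041 over all probes. The median Dnmt1-KO minus WT was 1.37 with normexp, -0.28 with 1 spread, -0.57 with the GC trend also removed and -0.048 with windows chosen on WT. For single genes, Dnmt1-KO minus WT turned to -0.63 at Tbx4 with the GC trend removed and 1 spread, and to -0.073 there with windows picked from the Eed-KO and WT arrays. With windows chosen on WT it was -0.28 at Tbx2, -0.028 at Tbx3, -0.073 at Tbx4 and -1.25 at Tbx5, which had -0.91 with windows picked from the Eed-KO and WT arrays. At Eomes it turned to 2.12 with normexp, 0.49 within 1000 bp and 0.41 over all probes, values that need not come from the same 6 probes. The causes were not tested. The median r of Eed-KO with WT was 0.92 with normexp. In the 14 alternatives that give a level, Eed-KO minus WT was above 0 in 14 at Eomes, Tbx1 and Tbx20, and below 0 in 14 at Tbx15. Keeping outlier spots and leaving out saturated or dim probes gave member levels identical to the main ones. The authors' values gave nearly identical ones. These alternatives could not change a sign, so the counts out of 14 overstate how many settings were informative. Input was dim on an array at 15 of the 376 member probes. No paired analysis was possible because each genotype had 1 array per design.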
